A study of Mus musculus with 3 samples.

Results

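A small set of myeloid cells of the mouse brain carried transcripts of Cd209a, a DC-SIGN family lectin, together with high levels of the MHC class II chain H2-Aa. They were picked from 2 matrices of brain cells by 3 conditions: at least 3 UMIs of Cd209a, at least 10 UMIs of H2-Aa, and no more than 3 UMIs of the microglial genes P2ry12 and Tmem119 together. The rule found 84 of 5933 cells in the brain with metastases and 51 of 2653 cells in the naive brain, so 135 of 8586 brain cells. The levels of these 4 genes chose the cells and are given only as a description.

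The series profiled single cells by RNA, by 35 antibody tags and by hashtags for 8 samples, in 1 pooled droplet run. Brain metastases came from E0771 mammary carcinoma cells injected into the carotid artery about 2 weeks before collection, and naive brains came from mice without metastases. The mice were female C57Bl/6 animals of 2 to 3 months. The depleted arm carried Cx3cr1CreERT and ROSA-iDTR, a toxin receptor switched on by Cre, and the control arm carried Cx3cr1CreERT alone. Both arms received tamoxifen and, after a pause of a month, diphtheria toxin, so the control cells had met both agents too. The Cx3cr1 promoter is active in microglia and in part of the monocyte lineage, and some microglia remained in the depleted samples. Each sample was 1 hemisphere or the blood of a mouse. The naive brain was 1 sample labelled depleted, with 1868 cells, and 1 labelled control, with 785. The cells of the brain with metastases could not be assigned to an arm and were treated as 1 pooled sample. With 1 sample per group no difference below has a replicate check, and no test was made.

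Type 2 conventional dendritic cells take up antigen, present it on MHC class II to CD4 T cells and depend on the receptor Flt3. In mice, CD209a and the galactose-binding lectin Mgl2 are used to mark these cells and some monocyte-derived cells that resemble them. In the brain such cells sit mainly at the meninges, the choroid plexus and around vessels, and they can be replenished from blood.

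The deposited values were corrected separately in each matrix, and levels are given here per 10000 corrected UMIs (CP10k). The Cd209a+ cells of the brain with metastases had a median of 14283 corrected UMIs and those of the naive brain 10290, while all cells had medians of 13647 and 9613. In the naive brain their raw depth ran between 3895 and 172338 UMIs, with a median of 15254. Some droplets were listed in more than 1 matrix: 21 of the 84 Cd209a+ cells of the brain with metastases (25%) and 15 of the 51 of the naive brain (29.4%). Over all cells the shares were 17.1% and 29.1%. In 14 cases the same barcode met the rule in both brains, leaving 121 distinct barcodes. These 14 pairs correlated over genes at 0.936 or more, whereas pairs with different barcodes correlated at 0.813 or less, and each pair is treated here as 1 droplet listed under both tissues. The results below are given with and without shared barcodes where that matters. The same 14 droplets also measured the effect of the separate correction, in which 1 of 2838 genes differed by 2-fold between the matrices, and the median log2 ratio was -0.01.

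The Cd209a+ cells made up 1.42% of the brain with metastases (95% exact binomial interval 1.13 to 1.75%) and 1.92% of the naive brain (1.43 to 2.52%). These intervals cover counting error only, and they overlapped. Without shared barcodes the shares were 1.28% (63 of 4921) and 1.91% (36 of 1880). Within the naive brain they were 2.09% (39 cells, 1.49 to 2.84%) in the sample labelled depleted and 1.53% (12 cells, 0.792 to 2.66%) in the sample labelled control. The same rule found 24 of 2924 cells in the blood of mice with metastases, 12 in each arm. At the lower edge of the rule, 9 cells of the brain with metastases and 10 of the naive brain had exactly 3 Cd209a UMIs. Just outside it, 8 and 9 cells with enough H2-Aa had 2. A further 19 and 20 cells met both minimums but were left out for their microglial genes.

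The dendritic label was checked against marker genes that the rule did not use. Flt3, the growth factor receptor of dendritic cells, or Zbtb46, a transcription factor of conventional dendritic cells, had a UMI in 57 of 84 Cd209a+ cells of the brain with metastases and in 34 of 51 of the naive brain. In T cells, which should lack both, the counts were 10 of 755 and 8 of 511. In other cells with at least 10 H2-Aa UMIs but no Cd209a they were 78 of 621 and 30 of 180. Few cells kept either gene after every cell was thinned to the same depth. With metastases Flt3 was then in 5.95% of Cd209a+ cells (1.96 to 13.3%) and 2.09% of these other cells (1.12 to 3.55%). Zbtb46 went the other way there, at 0% and 1.61%. In the naive brain Flt3 was in 11.8% and 3.33%, and Zbtb46 in 7.84% and 2.22%. Summed over a 12-gene list of type 2 and shared dendritic markers, the Cd209a+ cells had 14.1 CP10k in the brain with metastases, 15.8 in the naive sample labelled depleted and 14.05 in the one labelled control. Other cells with at least 10 H2-Aa UMIs but no Cd209a had 5.66 and 6.71 CP10k in the metastases and naive brains. The members of the list did not differ alike. After thinning, Clec10a was in 41.7% of Cd209a+ cells with metastases and 3.54% of the other cells, but Itgax was in 21.4% and 16.3%. In the naive brain the shares were 31.4% and 8.33% for Clec10a and 17.6% and 13.3% for Itgax. Xcr1, the receptor of type 1 dendritic cells, was listed at 0 in the naive brain and had 1 UMI in all in the brain with metastases. No cell reached 3 UMIs of Xcr1 and Clec9a together, which allows shares of up to 4.30% and 6.98%. Ccr7, the receptor that guides mature dendritic cells to lymph nodes, reached 3 UMIs in 5 and 2 cells.

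Markers of other cells were present too. In Cd209a+ cells the 10-gene monocyte list summed to 35.4 CP10k with metastases, and to 16.9 (depleted) and 24.1 (control) in the naive samples. The other H2-Aa-high cells had 43.0 CP10k of it with metastases and 30.0 in the naive brain. The 10-gene macrophage list summed to 49.0 CP10k in the Cd209a+ cells of the brain with metastases, 24.5 in the naive sample labelled depleted and 29.1 in the one labelled control, while the other H2-Aa-high cells had 133 and 210 and T cells 23.9 and 44.0. The 10-gene microglia list stayed at 4.50, 8.80 and 6.38 CP10k, against 144 and 167 in microglia. The list of 8 B cell markers summed to 1.25 CP10k in the metastases, 1.30 in the depleted and 2.42 in the control sample. In these 84, 39 and 12 cells 3, 4 and 6 of the markers were at 0. The neutrophil list was high and uneven, at 45.7, 29.8 and 84.5 CP10k, and T cell genes summed to 7.27, 7.81 and 10.9. At least 2 UMIs of a defining gene of T, B, NK, neutrophil or epithelial cells were found in 34 of 84 and 16 of 51 Cd209a+ cells. No doublet caller was run, and the part of mixed droplets or free RNA in the results was not tested beyond leaving these cells out.

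Compared with the other H2-Aa-high cells of the same brain (621 and 180 cells), the Cd209a+ cells differed by lectins and by a few signalling genes. This is a description, since the rule split these cells by a gene that varies with many others. Past 2-fold in both brains, 33 of 2835 genes were higher (1.16%) and 120 lower (4.23%). Clec10a, a second galactose-type lectin, stood at 3.17 CP10k against 0.212 in the brain with metastases and at 3.11 against 0.364 in the naive brain. Mgl2 stood at 2.84 against 0.283 CP10k and at 8.53 against 0.987. The neighbouring lectin gene Cd209d had 0.753 and 0.987 CP10k, with 0.0336 and 0.00551 in the other cells. The lectin group as a whole did not move together: 4 members of 13 were past 2-fold higher and 4 lower in the brain with metastases. Over all measured genes of that comparison the shares were 2.44% and 6.14%, and in the naive brain 2.14% and 8.94%.

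Klrd1, which encodes the NK receptor chain CD94, was one of the most widespread of these genes. It had a UMI in 68 of 84 Cd209a+ cells of the brain with metastases and in 41 of 51 of the naive brain, at 3.75 and 4.53 CP10k. The other H2-Aa-high cells had 0.557 and 0.799 CP10k, and T cells 2.54 and 2.15. An 8-gene NK cell list without it stayed low in the Cd209a+ cells, at 0.482 CP10k in the brain with metastases. After every cell was thinned to 2000 UMIs, 47.6% of Cd209a+ cells of the brain with metastases still had Klrd1, against 6.60% of the other cells. Flt3 (0.652 and 0.716 CP10k), the kynurenine enzyme gene Kmo (0.872 and 0.716) and the transcriptional regulator gene Lmo1 (0.914 and 1.28) were likewise at least 2-fold above the other cells in both brains. So were Etv3, an ETS-family repressor gene, Avpi1, Trappc5, Eps8 and the lectin gene Clec4b1. The plot of named genes shows these differences side by side.

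**Figure D1:**
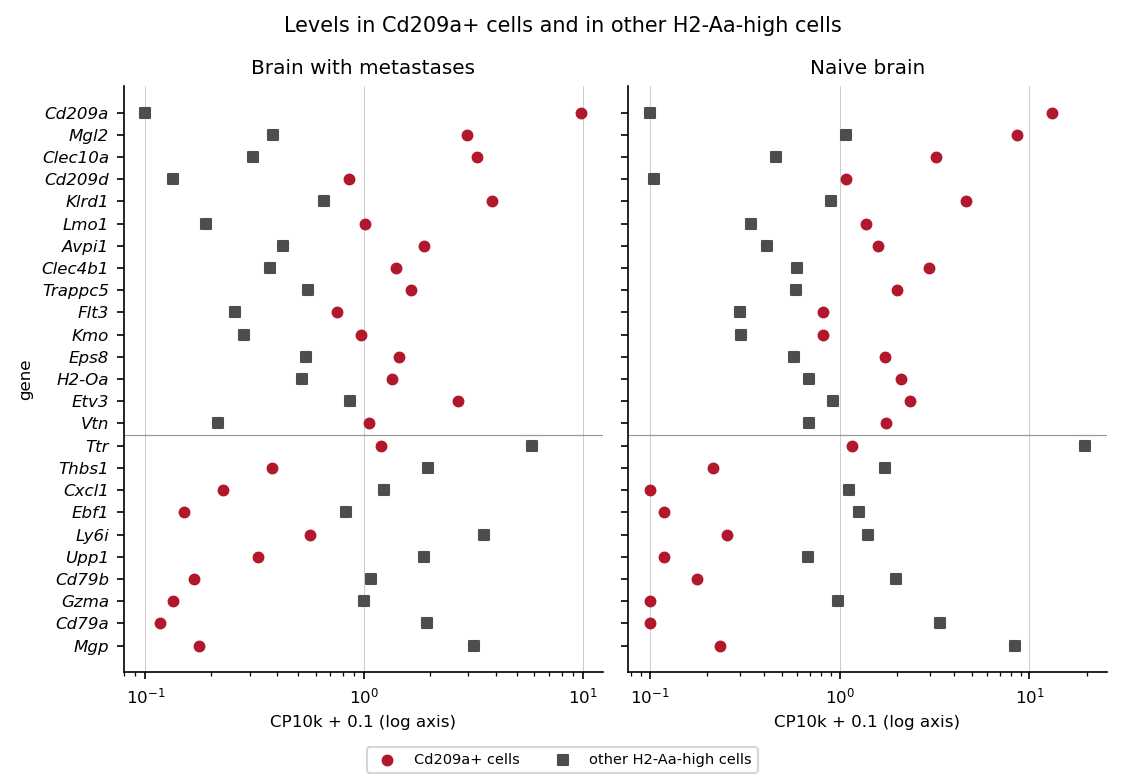
Level of each named gene in Cd209a+ cells (red circles) and in other H2-Aa-high cells without Cd209a (grey squares), in CP10k plus 0.1 on a log axis, for the brain with metastases (left) and the naive brain (right). Genes above the line were the 15 highest in Cd209a+ cells and those below it the 10 lowest, each ranked by the weaker ratio of both brains. That the 2 sets of points lie on the same sides in both brains therefore follows from the choice of genes. Cd209a was part of the rule.

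MHC class II genes were higher in the Cd209a+ cells than in the other H2-Aa-high cells, which had been held only to the same minimum. Of 9 measured list members 8 were higher in the brain with metastases (median log2 ratio 0.65), and of 10 measured in the naive brain 8 were higher (median 0.81); over all genes the medians were -0.08 and -0.06. H2-Oa, the chain of a peptide-exchange inhibitor, was past 2-fold higher in both, at 1.24 against 0.420 CP10k and at 2.01 against 0.590. MHC class I and peptide-loading genes lay on the other side, with 0 of 13 members higher in either brain and medians of -0.54 and -0.44. Lysosomal genes were lower too (medians -0.88 and -1.01), with cathepsin B, Ctsb, at 8.97 against 21.1 CP10k in the brain with metastases and at 6.17 against 17.5 in the naive brain. Chemokine genes had medians of -1.21 and -1.63.

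The lowest genes of the Cd209a+ cells included B cell and stromal transcripts, such as Cd79a, Cd79b and Ebf1 of B cells and Mgp of stromal cells. Mgp stood at 0.0762 against 3.09 CP10k in the brain with metastases and at 0.135 against 8.30 in the naive brain. The comparison cells therefore held more than 1 cell type: the B cell list summed to 7.80 and 14.3 CP10k in them.

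The authors' surface gates rest on antibody tags, which the rule did not use, and were deposited for the naive brain. The tags that settle most of these gates have the following 15-base barcodes, shown because the gates below are read from them.
CD11b: tgaaggctcatttgt
Ly6C: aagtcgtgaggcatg
Ly6G: acattgacgcaacta

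By the authors' gates, 42 of 51 naive Cd209a+ cells were CD11b+ and 34 (66.7%, interval 52.1 to 79.2%) were Ly6C-low. Among all other cells of the naive brain 239 of 2602 (9.19%) were Ly6C-low, among the other cells of the RNA cluster that held most Cd209a+ cells 26 of 238 (10.9%), and among other H2-Aa-high cells 50 of 180 (27.8%). Within these last, C1qa-high cells had 31 of 101 (30.7%) and Ccr7+ cells 4 of 13 (30.8%). The Ly6C gates split only cells of the CD11b+ gate, so these shares also carry the CD11b gate. Of CD11b+ cells, 34 of 42 Cd209a+ cells and 239 of 497 of all other cells were Ly6C-low. In the other cells of the cluster it was 26 of 118, and in other H2-Aa-high cells 50 of 89. C1qa-high cells had 31 of 48 and Ccr7+ cells 4 of 6. The gate for myeloid cells native to the brain held 3 of the 51 Cd209a+ cells, 45 of 180 other H2-Aa-high cells (25%) and 85 of 238 other cells of the cluster (35.7%). Cells with microglial genes had been taken out of the Cd209a+ and the other H2-Aa-high cells but not out of the cluster, so the shares in this gate are given only as a description. The Ly6C-low share was 27 of 39 (69.2%, 52.4 to 83.0%) in the sample labelled depleted and 7 of 12 (58.3%, 27.7 to 84.8%) in the one labelled control. Without shared barcodes the Ly6C-low share was 27 of 36 (75%). Of the 51 cells, 45 lay in the same RNA cluster.

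Another 6 cells were Ly6C-high by antibody, and 5 of those 6 were shared barcodes. Their RNA differed from that of the 34 Ly6C-low cells. Ly6c2, the monocyte antigen gene behind the tag, stood at 7.42 CP10k in Ly6C-high and 0.441 in Ly6C-low cells, and Plac8, a gene of circulating monocytes, at 7.74 and 2.85. Mgl2 went the other way, at 2.74 CP10k in Ly6C-high cells, all from 1 cell, and 11.8 in Ly6C-low cells, where 26 of 34 had a UMI. Over single cells Mgl2 and Plac8 varied in opposite directions in both brains. Pearson coefficients on log values were -0.53 over 84 cells with metastases and -0.67 over 51 naive cells. All these cells came from the same RNA library, and 14 barcodes were counted in both brains. Cd209a itself went with Ccr2, a monocyte chemokine receptor, in the naive brain (0.54). The closest partner with metastases, Ppp2cb, reached 0.40.

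Between the brains, the interferon lists had the highest medians in the Cd209a+ cells apart from haemoglobin, whose 4 genes had a median log2 ratio of 5.04 and rested mainly on 1 cell. Of 3015 measured genes, 123 were past 2-fold higher (4.08%) and 25 past 2-fold lower (0.829%) in the brain with metastases than in the naive brain, with a median log2 ratio of 0.05. Ratios are on the scale log2(CP10k + 0.1), which understates the change of low genes. All 25 interferon response genes stood higher in the brain with metastases, and of the 23 measured ones 20 were past 2-fold, with a median log2 ratio of 1.49. Of these 23 genes 9 were measured only through the brain with metastases, so the count past 2-fold is partly set by the filter. Without the filter on low values the median was 1.47. Of 15 genes on the list of interferon gamma-induced GTPases and related genes 14 stood higher, and the list summed to 12.8 CP10k in the brain with metastases, against 3.00 in the naive brain. Of its 8 measured genes 7 were past 2-fold (median 1.74), but 6 of the 8 were measured only through the brain with metastases, so that this count is partly set by the filter; with no filter the median was 1.44. In the 14 droplets listed in both matrices the median of the response list was -0.03.

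Isg15, a ubiquitin-like protein induced by interferon, stood at 7.80 CP10k in the cells of the brain with metastases and 1.39 in those of the naive brain (log2 ratio 2.40). Per cell it ran between 0 and 68 UMIs with a median of 3 in the 84 cells of the brain with metastases, and between 0 and 20 with a median of 0 in the 51 naive cells. At least 3 UMIs were found in 46 of 84 and in 6 of 51 cells. The groups overlapped, and many cells of the brain with metastases were as low as the naive cells. Ifit3, an antiviral protein gene, had 3.62 and 0.542 CP10k and a UMI in 40 and 12 cells. Rsad2, which encodes viperin, had 3.67 and 0.503 CP10k, with 39% of its UMIs in the brain with metastases from 1 cell. Gbp2, a guanylate-binding protein gene, had 2.49 and 0.116 CP10k. The transcription factor gene Irf7 was higher as well, at 4.48 and 1.43 CP10k. Interferon-inducible genes outside the lists were also among the 12 highest ratios: Ifitm1 had 11.3 and 0.987 CP10k, Ly6a 7.02 and 1.08, and Ifi205 1.38 and 0.135.

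The promoters of 4 of these genes and of Cxcl10 are printed because all 5 hold the letters of an interferon-stimulated response element, shown in capitals: GAAA, any 2 bases and GAAA again, or on the other strand TTTC, any 2 bases and TTTC. They run from 250 bases before the gene's start to 50 after it and are RefSeq sequences of GRCm38.p6, written along the gene's strand.
Isg15, chr4:156200769-156201068, minus strand: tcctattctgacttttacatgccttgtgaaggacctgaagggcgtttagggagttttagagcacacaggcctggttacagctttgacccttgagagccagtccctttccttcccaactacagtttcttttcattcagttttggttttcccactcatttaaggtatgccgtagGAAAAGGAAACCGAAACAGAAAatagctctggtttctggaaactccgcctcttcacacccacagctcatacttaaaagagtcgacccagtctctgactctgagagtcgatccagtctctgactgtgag
Ifit3, chr19:34583279-34583578, plus strand: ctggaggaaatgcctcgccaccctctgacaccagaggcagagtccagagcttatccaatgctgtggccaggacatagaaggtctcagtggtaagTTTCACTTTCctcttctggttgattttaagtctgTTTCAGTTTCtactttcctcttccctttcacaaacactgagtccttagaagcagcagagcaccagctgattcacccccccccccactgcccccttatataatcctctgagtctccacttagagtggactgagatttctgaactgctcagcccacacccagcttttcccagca
Rsad2, chr12:26456403-26456702, minus strand: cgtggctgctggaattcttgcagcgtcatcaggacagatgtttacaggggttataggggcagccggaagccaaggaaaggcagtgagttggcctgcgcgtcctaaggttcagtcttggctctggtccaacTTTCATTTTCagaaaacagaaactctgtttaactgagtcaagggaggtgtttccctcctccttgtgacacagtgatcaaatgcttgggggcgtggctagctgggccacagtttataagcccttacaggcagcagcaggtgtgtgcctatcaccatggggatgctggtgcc
Gbp2, chr3:142620413-142620712, plus strand: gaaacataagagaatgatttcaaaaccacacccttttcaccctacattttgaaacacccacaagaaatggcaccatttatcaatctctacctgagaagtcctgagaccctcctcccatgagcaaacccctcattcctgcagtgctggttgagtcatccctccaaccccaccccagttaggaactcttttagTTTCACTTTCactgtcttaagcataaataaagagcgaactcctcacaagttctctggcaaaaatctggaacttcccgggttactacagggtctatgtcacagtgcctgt
Cxcl10, chr5:92348840-92349139, minus strand: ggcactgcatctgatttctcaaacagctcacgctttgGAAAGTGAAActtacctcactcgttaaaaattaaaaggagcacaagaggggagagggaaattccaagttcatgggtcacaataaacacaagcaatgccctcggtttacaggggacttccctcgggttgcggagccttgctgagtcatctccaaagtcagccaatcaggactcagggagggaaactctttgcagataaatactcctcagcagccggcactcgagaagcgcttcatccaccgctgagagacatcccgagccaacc

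The Isg15 promoter held 3 overlapping matches, between -78 and -57 relative to the start. The Ifit3 promoter held 2, and the other 3 promoters 1 each. The letters occurred in 1131 of 32851 promoters of the table (3.44%). They occurred in 9 of the 16 measured interferon response genes that had a promoter there and in 6 of 8 GTPase genes. A match is a match of letters and was not tied to binding.

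Chemokine genes varied widely between the cells. Cxcl10, a ligand of the chemokine receptor Cxcr3 of T cells, stood at 24.95 CP10k with metastases and 2.53 in the naive brain (log2 ratio 3.25). It had a UMI in 54 of 84 and in 15 of 51 cells, reached 10 UMIs in 26 and in 4 of them, ran between 0 and 597 with a median of 1 in the brain with metastases, and between 0 and 51 with a median of 0 in the naive brain. A single cell gave 20% of the UMIs in the brain with metastases; without the highest cell of each brain the log2 ratio was 3.59. Cxcl9, another Cxcr3 ligand, had the highest ratio apart from haemoglobin genes, at 4.27 and 0.135 CP10k, from 20 and 6 cells. Of 14 measured chemokine genes 11 were higher and 4 past 2-fold (median 0.69), whereas Ccl5 (5.49 and 5.59 CP10k), Ccl3 (2.78 and 2.69) and Ccl2 (4.37 and 4.58) were nearly level. Over the cells of the brain with metastases Cxcl10 and Isg15 correlated at 0.59.

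**Figure D2:**
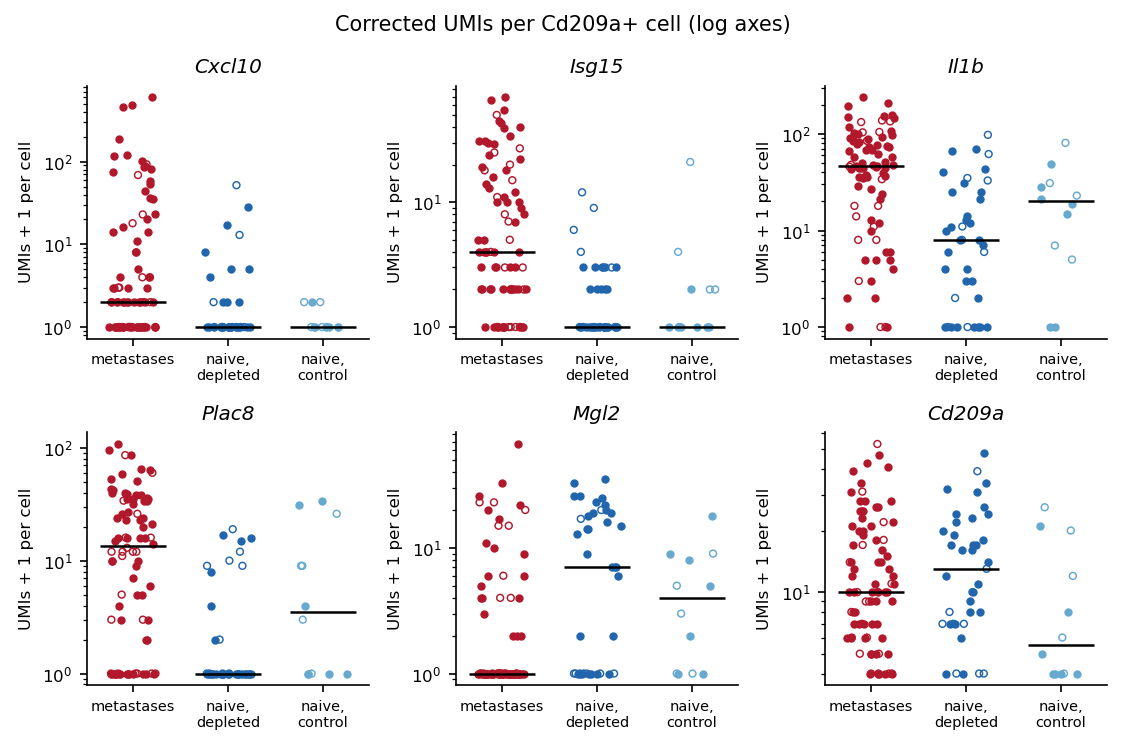
Corrected UMIs plus 1 per Cd209a+ cell on log axes for 6 genes; each point is a cell, open points are barcodes listed in another matrix, and black lines are medians. The 84 cells of the brain with metastases stand left of the 39 naive cells labelled depleted and the 12 labelled control. The groups overlap in all 6 panels; the medians of Isg15, Il1b and Plac8 are higher in the brain with metastases, that of Mgl2 is lower, and Cd209a was part of the rule.

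The same lists were read in other cells of both brains. The interferon response median of the metastases over the naive brain was 0.48 in the other H2-Aa-high cells, 0.87 in Ccr7+ cells (55 and 13 cells), 0.39 in C1qa-high cells, 0.64 in T cells and 0.19 in microglia. In the naive brain the Cd209a+ cells had a lower interferon level than the other H2-Aa-high cells. There the response list summed to 52.7 CP10k, against 85.0 in the other H2-Aa-high cells. With metastases the sums were 113 in Cd209a+ cells and 121 in the others. Within the naive brain 19 of the 24 measured response genes were past 2-fold lower in Cd209a+ cells than in the other H2-Aa-high cells. In the brain with metastases it was 2 of 25. Over all measured genes 8.94% were past 2-fold lower in the naive brain and 6.14% in the brain with metastases. A gene counted as measured if either side passed the filter, so it could be measured through the other cells alone. Whether the change differed between the cell types was not tested.

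**Figure D3:**
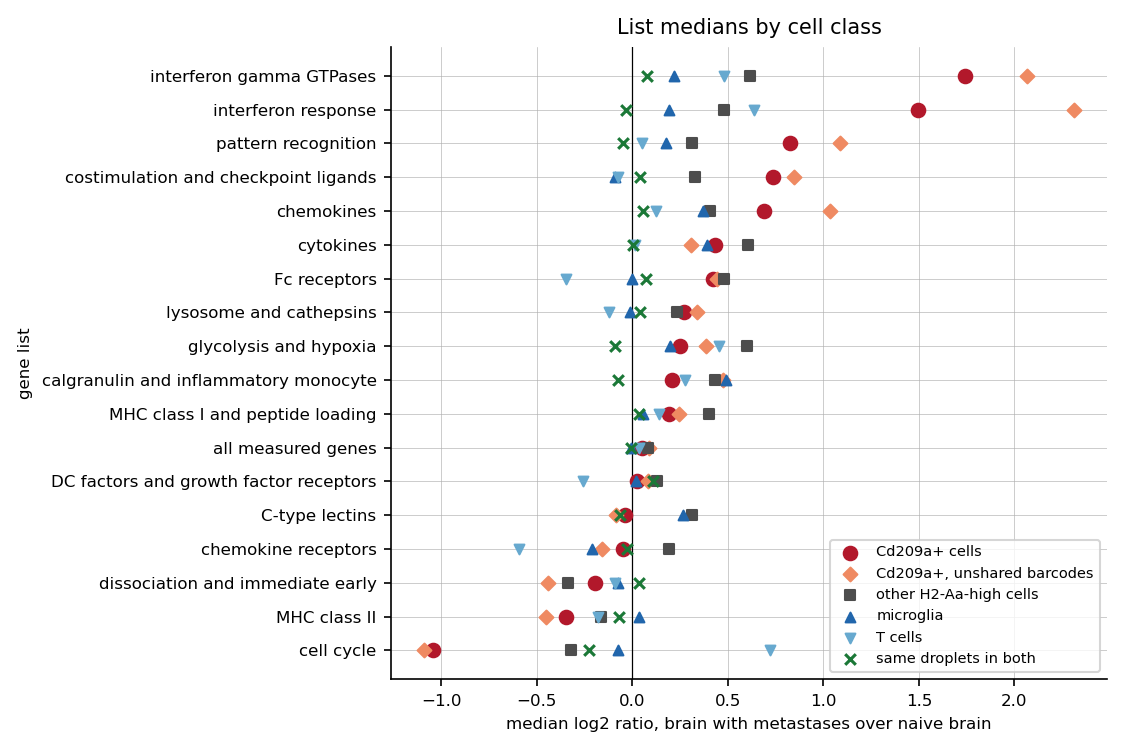
Median log2 ratio, brain with metastases over naive brain, of the measured members of each gene list, for Cd209a+ cells with and without shared barcodes and for 3 other cell classes. Green crosses are the 14 droplets listed in both matrices, which lie between -0.23 and 0.11; haemoglobin is left out, and the interferon lists of the Cd209a+ cells lie farthest to the right and cell cycle farthest to the left.

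Without shared barcodes 7.41% of genes were past 2-fold higher and 2.36% past 2-fold lower between the brains. The response median was then 2.31 and the GTPase median 2.06, and Isg15 stood at 8.37 CP10k in the 63 remaining cells of the brain with metastases and 0.495 in the 36 remaining naive cells. Against the naive sample labelled depleted alone the response median was 1.47, and against the one labelled control it was 1.58. Cxcl10 had 3.26 CP10k in the 39 naive cells labelled depleted and 0.242 in the 12 labelled control, where no cell exceeded 1 UMI. Of the 128 depleted-labelled UMIs 51 came from 1 cell with a shared barcode, and 4 of the 39 cells reached 10.

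Costimulation genes leaned higher in the brain with metastases, while cytokine genes were mixed. Of 8 measured costimulation and checkpoint ligand genes 7 were higher and 2 past 2-fold (median 0.74). Cd40, the receptor for T cell help, had 0.923 and 0.174 CP10k, Cd86, a CD28 ligand, 1.95 and 1.01, and Cd274, which encodes PD-L1, 0.753 and 0.310. Tnfsf9, the 4-1BB ligand gene, was the exception at 4.13 and 5.18 CP10k. Cd40 and Cd274 were measured only through the brain with metastases. Against the control-labelled naive cells 5 of 9 measured genes of this list were higher and 4 lower (median 0.47). Of 8 measured cytokine genes 5 were higher, 3 of them past 2-fold, and 3 lower (median 0.43). Against the control-labelled cells 4 of 9 cytokine genes were higher and 5 lower (median -0.13). Il1b, the interleukin-1 beta gene, had 41.2 and 17.8 CP10k (log2 ratio 1.21); per cell it ran between 0 and 238 UMIs with a median of 45.5 in the brain with metastases, and between 0 and 97 with a median of 9 in the naive brain. Tnf, another inflammatory cytokine gene, stood at 1.29 and 2.07 CP10k, with 26% of the naive UMIs from 1 cell. Il12b, which encodes a subunit of interleukin-12, was listed at 0 in both. The monocyte genes Plac8 (14.5 and 4.26 CP10k) and Ms4a4c (8.22 and 3.13) were past 2-fold higher, as was Fcgr1, a high-affinity Fc receptor gene (2.67 and 0.812). Plac8 was not against the naive sample labelled control, at 8.80 CP10k. Other monocyte genes differed less. After every cell was thinned to the same depth, Plac8 was in 64.3% of Cd209a+ cells with metastases and 27.5% of naive ones. Ly6c2 was then in 20.2% and 13.7%, and Ccr2 in 51.2% and 54.9%. Of 16 measured genes on a calgranulin and inflammatory monocyte list 12 were higher, but 1 was past 2-fold (median 0.21). Against the control-labelled cells 8 of 17 were higher (median -0.04). Separately, the 10-gene monocyte list summed to 35.4 CP10k against 16.9 in the naive sample labelled depleted and 24.1 in the one labelled control.

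Mgl2 was lower in the brain with metastases, at 2.84 CP10k against 8.53 in the naive brain (log2 ratio -1.55). At least 3 UMIs were found in 23 of 84 and in 29 of 51 cells, and in 0 of 755 and 0 of 511 T cells. The median cell of the brain with metastases had 0 UMIs and that of the naive brain 6, with highest values of 66 and 34. Thinned to 2000 UMIs, 20.2% and 54.9% of cells had it. The naive samples differed here, at 9.92 CP10k in the one labelled depleted and 4.12 in the one labelled control, so the ratio to the control-labelled cells alone was -0.52. Clec4b1 was also lower, at 1.29 and 2.84 CP10k. Clec10a, by contrast, had 3.17 and 3.11 CP10k, and Klrd1 3.75 and 4.53.

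MHC class II genes leaned lower in the brain with metastases: 7 of 10 measured members were lower, 0 were past 2-fold, and the median was -0.35. H2-Ab1, the partner chain of H2-Aa, had 78.4 and 105 CP10k, and H2-Eb1, a chain of the second class II molecule, 69.2 and 103. Against the control-labelled naive cells the list median was 0.03, with 5 members on each side. The peptide-loading gene Tap1 was higher, at 2.41 and 0.948 CP10k, while the light chain gene B2m had 22.1 and 19.3.

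Cell cycle genes leaned lower, with 17 of 20 list members below the naive level and sums of 20.4 CP10k with metastases and 27.7 in the naive brain. The median of the 12 measured members was -1.04, but 6 of the 12 were measured only through the naive brain, and with a filter at 2 CP10k the median was -0.27. In the 14 droplets listed in both matrices 13 of 14 measured members were lower too (median -0.23). The median cell had 15.2 CP10k of the list with metastases and 14.4 in the naive brain. Mki67 had 0.508 and 1.18 CP10k, Top2a 0.601 and 1.22, and Cdk1, the mitotic kinase gene, 0.161 and 0.561. These levels rested on few cells, 7 of 84 and 8 of 51 with at least 3 UMIs of Mki67 and Top2a together. Genes of dendritic transcription factors and growth factor receptors had a median of 0.02, and 0 of 14 were past 2-fold. Immediate early genes, which rise when tissue is dissociated, had a median of -0.20.

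In the naive brain the 39 cells labelled depleted and the 12 labelled control are given side by side only, because 12 cells are too few for a comparison of gene lists. Cx3cr1, whose promoter drives Cre, stood at 0.738 CP10k in the depleted sample and 0.404 in the control sample, with a UMI in 16 of 39 and 3 of 12 cells. H2-Ab1 had 113 and 79.3 CP10k, Cd74 294 and 195, Klrd1 5.19 and 2.42, and Plac8 2.82 and 8.80. In blood Cx3cr1 had a UMI in 11 of 12 cells labelled depleted and 2 of 12 labelled control. In both tissues the level was higher in the sample labelled depleted. Whether this bears on the labels was not tested, and the labels are used here only as names.

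The 24 blood cells of the same rule came from mice with metastases. Isg15 had 12.2 CP10k in the 12 cells labelled depleted and 0.988 in the 12 labelled control, Cxcl10 13.6 and 0.988, and Ifit3 4.81 and 0.706. These levels came from 5, 3 and 3 depleted-labelled cells, and 3 cells with 44, 28 and 11 UMIs, 1 of them a shared barcode, gave nearly all of the 86 Isg15 UMIs. The cells of the arms overlapped: the response list ran between 47.7 and 346 CP10k per cell (median 82.4) in those labelled depleted, and between 31.7 and 157 (median 69.9) in those labelled control. Plac8 was high in both, at 16.8 and 14.4 CP10k, and Mgl2 had 2.40 and 0.988, from 2 cells each. The brain with metastases stood above this blood in chemokine genes (median log2 ratio 2.21) and in immediate early genes (1.18), with -0.09 over all genes. Brain and blood were also handled differently, since brains were digested and blood was not, and the part of handling in these ratios was not tested.

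**Figure D4:**
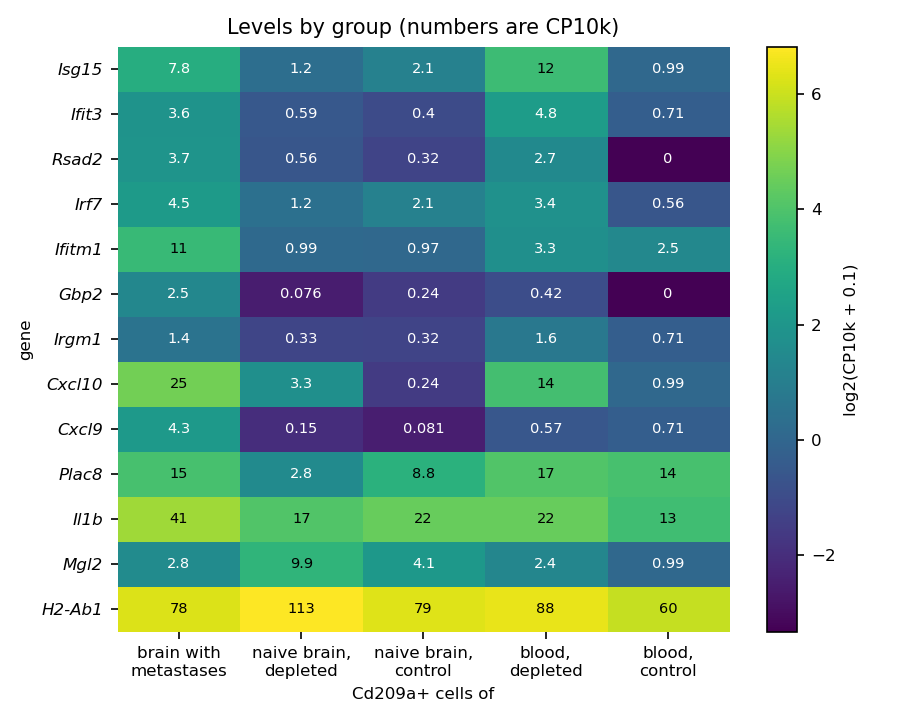
Level of 13 genes in the Cd209a+ cells of each sample; colour is log2(CP10k + 0.1) and the printed numbers are CP10k. From left to right the columns hold 84, 39, 12, 12 and 12 cells; Isg15 was 7.8 with metastases, 1.2 and 2.1 in the naive samples, and 12 and 0.99 in the blood samples labelled depleted and control.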

How the data were processed

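The RNA library of 1 pooled droplet run was used through 3 deposited matrices, for the brain with metastases, the naive brain and the blood of mice with metastases. Cell Ranger 3.1, Seurat 3.1.1 and the mm10 genome are named in the submitters' processing notes. The values the authors deposited are natural log values, ln(1 + corrected UMIs), with the depth correction made matrix by matrix; undoing the log gave whole numbers within 1e-06. The authors' deposited annotation gave raw UMI counts, hashtag and antibody counts, surface gates, clusters, arms and the corrected total per cell, a score here; 38 of its columns were left unused. The plan had assumed raw counts.

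Corrected UMIs were summed over cells and scaled to 10000 (CP10k). A gene was measured at 0.5 CP10k or more on either side, and ratios are log2 with a pseudocount of 0.1. Past 2-fold is a description: with 1 sample per group no test was run. Shares have exact Clopper-Pearson intervals at 95%, which cover counting error only. All deposited cells were kept. Named were members of the gene lists, the 12 highest and 12 lowest ratios between brains, and the 15 highest and 10 lowest against other H2-Aa-high cells. Those last genes were ranked by the weaker ratio of both brains. The cells and lists were chosen with earlier results of these data known. T cells had at least 2 UMIs each of Cd3e and Cd3g, with H2-Aa below 3; microglia at least 10 of P2ry12 and Tmem119; C1qa-high and Ccr7+ cells at least 10 and 3. Alternatives changed the rule, barcodes, mixed droplets, deep cells, pseudocount and filter. The ratio step was tested on simulated data. Python used numpy 2.4.6, pandas 2.3.3, scipy 1.17.1 and matplotlib 3.10.9.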

Additional observations from a re-analysis of the deposited data

How the results depend on the processing

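Of 286 values recomputed for the comparisons, 248 stayed close to the reported one (within 1.5 times, or inside the interval of a share) and 38 moved. Counts of genes higher and lower between the brains (123 and 25) were 223 and 71 without shared barcodes, 215 and 73 without mixed droplets, 29 and 2 with a pseudocount of 1, 41 and 2 with a filter at 2 CP10k, and 197 and 89 with no filter. The lower count was 41 without deep cells. Counts against other H2-Aa-high cells (33 and 120) were 7 and 33 with the pseudocount of 1, 13 and 49 with the filter at 2, and 52 and 195 with none.

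The interferon response median (1.49) was 2.31 without shared barcodes and 0.78 with the pseudocount of 1. The GTPase median (1.74) was 2.35 without mixed droplets, 0.71 with the pseudocount and 2.71 with the filter at 2. Cell cycle (-1.04) had -0.43 with the pseudocount and -0.27 with the filter at 2. With that filter costimulation (0.74) had -0.32 and C-type lectins (-0.04) -1.08, on fewer genes. Cytokines (0.43) had 1.05 without mixed droplets, and haemoglobin 5.79 there and 2.16 with the pseudocount. Without mixed droplets the shares of Cd209a+ cells were 0.843% in the brain with metastases, 1.32% in the naive brain and 1.34% in its sample labelled depleted. The stricter rule of 5 Cd209a and 20 H2-Aa UMIs gave 0.764% in the sample labelled control.

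Alternatives chosen after seeing the data were the naive arms taken alone and leaving out each gene's highest cell. Cytokines had 1.15 against the depleted-labelled cells, -0.13 against the control-labelled cells and 1.22 without the highest cells. Against the control-labelled cells 250 genes were lower and the chemokine receptor median was 0.57. Without the highest cells 11 genes were lower. For single genes 68 of the recomputed ratios moved; 1 changed direction, Ly6d, at 0.54 under the looser rule of 2 Cd209a and 5 H2-Aa UMIs. Apart from the filter, the cause of these moves was not tested.

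No paired analysis was possible because each group had 1 sample and the labels give no shared replicate numbers. Shared barcodes could not be assigned to 1 tissue. The naive sample labelled control had 12 Cd209a+ cells, so its values move with single cells, and low genes rest on few UMIs there.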

Other observations

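Several large ratios rested on 1 cell. In the brain with metastases 1 cell held 99.1% of the UMIs of the haemoglobin gene Hbb-bs, and without the highest cells its log2 ratio between the brains was -0.33, against 5.46 with them. Vcam1, an endothelial adhesion gene, had 82% of its UMIs there from 1 cell, the platelet chemokine gene Pf4 64% and the chemokine gene Ccl8 54%. In the naive brain all 82 UMIs of Ly6d lay in 1 cell labelled control, and the plasmacytoid dendritic cell genes Siglech and Runx2 had 70% and 58% of their UMIs in a single cell. Vtn, which was among the genes highest in Cd209a+ cells, had 98% of its UMIs from 1 cell in each brain.

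Shared barcodes also carried most of the RNA of S100a8, a calgranulin gene of neutrophils. It stood at 39.4 CP10k in the 21 shared cells of the brain with metastases and 5.77 in the 63 others. In the naive brain it stood at 45.6 in the 15 shared cells and 0.412 in the 36 others. Single cells weighed on these levels: in that order the medians were 1, 0, 1 and 0 UMIs and the highest cells had 535, 460, 357 and 7. Both naive cells in the gate for Ly6C and Ly6G were shared barcodes. The monocyte antigen gene Ly6c2 showed the same order, at 4.66 and 1.62 CP10k in the brain with metastases and 5.17 and 0.879 in the naive brain.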
